A study of Mus musculus with 9 samples.

Results

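The subunits of the RNA polymerases, of Integrator, of Mediator and of the TBP-associated (Taf) complexes were followed in the mouse olfactory bulb from embryonic day 11 (E11) to birth (P0). Members were the genes whose only symbol begins with Polr, or with Ints, Med or Taf and a digit, and that had a probe set reaching a log2 level of 5 on 2 or more of the 9 arrays. Of 95 such symbols, 91 passed, among 10864 genes tested in all. They comprised 26 RNA polymerase genes, 15 Integrator genes, 30 Mediator genes and 20 Taf genes. For each gene the probe set of highest mean level was used. The bulb of 1 CD1 mouse was dissected at each age from E11 to E18 and at P0, its total RNA was amplified in 2 rounds, and each RNA was hybridised to 1 Affymetrix mouse array. CD1 is an outbred strain, and all animals were of that strain with no treatment named in the labels. Since no age had a replicate, the error of each trend is the scatter of the 9 arrays around a line. Whole tissue was measured, so that fewer cells of a type and less RNA per cell cannot be told apart.

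RNA polymerase I makes the large ribosomal RNA, RNA polymerase II makes messenger RNA and most small nuclear RNAs, and RNA polymerase III makes transfer RNA and the smallest ribosomal RNA. Mediator passes signals from bound transcription factors to RNA polymerase II, and its detachable kinase module carries Cdk8 or Cdk19 with cyclin C. Integrator binds paused RNA polymerase II, where it cuts the nascent RNA with an endonuclease and removes phosphates with a bound phosphatase. Taf proteins surround the TATA-binding protein in TFIID at promoters of RNA polymerase II, and other Taf proteins form SL1 at the ribosomal RNA promoter. A neural tissue that passes from dividing progenitors to neurons uses all of these machines throughout.

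Falling genes outnumbered rising ones among the 91. By limma's test of the slope on age, 44 members fell (48.4%), 1 rose and 46 did not pass, where 21.9% of all genes tested fell and 25.2% rose. Slopes lay below 0 for 82 members and above 0 for 9, with a median of -0.080 log2 units per day, against 0.0020 over all genes tested. Fitted over the 8 days, 16 members fell by 1 log2 unit or more (17.6%), as did 11.4% of all genes tested. Of the 4552 genes tested with a mean level inside the interquartile range of the members' levels, 24% fell. Fewer members passed without the early arrays, in fits that also hold fewer arrays. From E13 to P0 alone, 15 members fell (16.5%), where 11.1% of all genes fell and 14.2% rose. Without the E11 array alone, 32 fell (35.2%), as did 16.6% of all genes. A call that ended from E13 to P0 did not always come with a flatter slope. The slope of Med24 there was -0.11, against -0.10 over all arrays, and that of Polr1a was -0.065, against -0.15.

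Integrator had the highest share of falling genes, 11 of 15 (73.3%), with 15 of 15 slopes below 0 and a median slope of -0.092. Of the Taf genes 11 of 20 fell (55%, median slope -0.087), of the polymerase genes 12 of 26 (46.2%, median -0.085) and of the Mediator genes 10 of 30 (33.3%, median -0.049). Over all genes tested 21.9% fell, and differences between these shares were not tested. From E13 to P0 alone, 5 of 15 Integrator, 4 of 26 polymerase, 3 of 30 Mediator and 3 of 20 Taf genes fell. Over all genes tested 11.1% fell there, so that the Mediator share was no higher. The Taf count also moved to 5 without the E12 array, where 19.2% of all genes tested fell. It moved to 7 without E11, E13, E17 or P0 (16.6% to 20.4% of all genes). The Mediator count moved to 6 without E11 (16.6% of all genes).

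**Figure D1:**
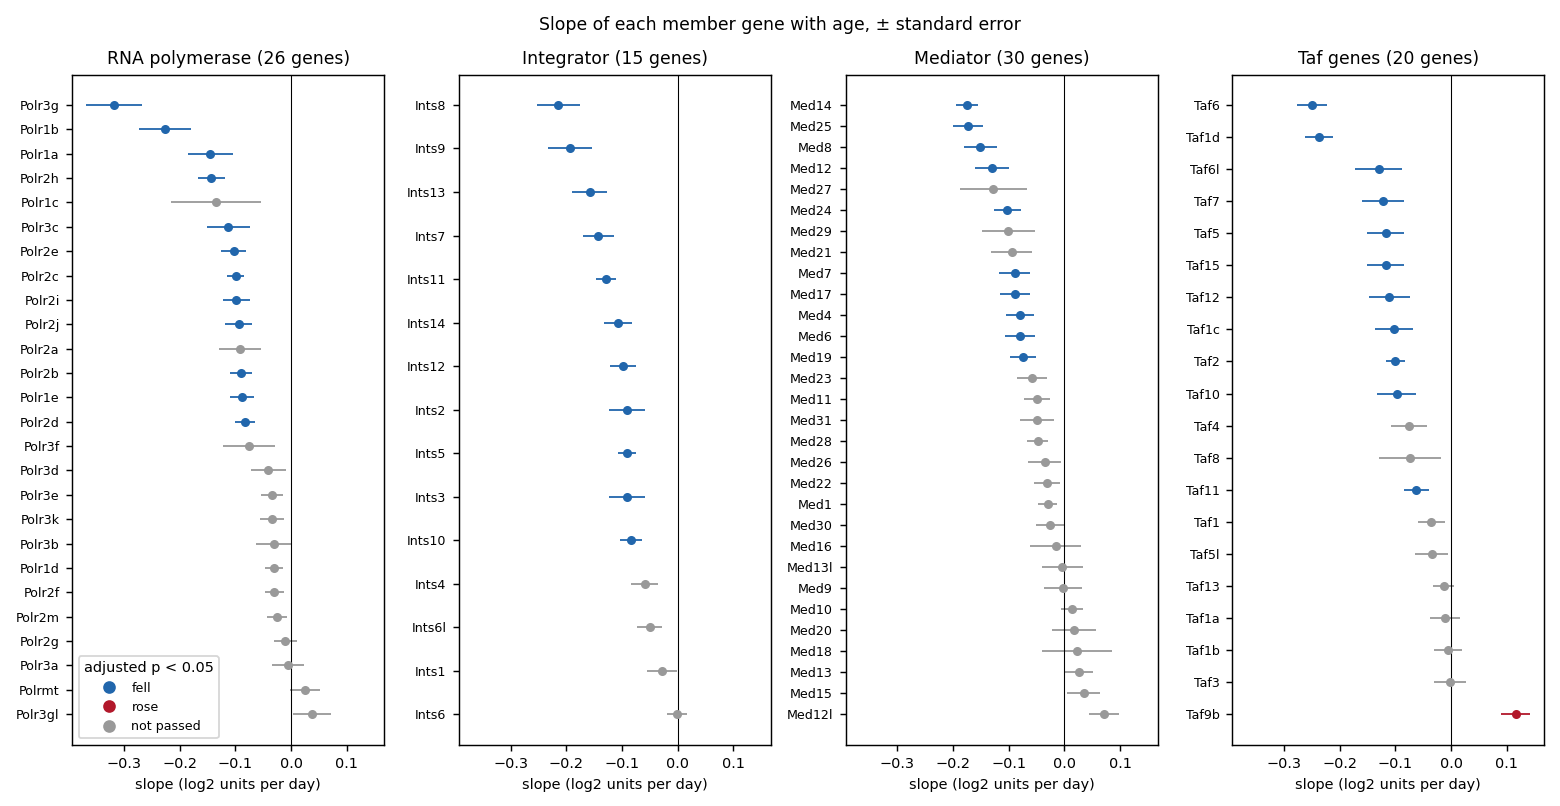
Slope with age (log2 units per day) of each of the 91 member genes, with its moderated standard error as a bar, in 4 panels of 26 RNA polymerase, 15 Integrator, 30 Mediator and 20 Taf genes sorted by slope. Blue points fell and the red point rose at an adjusted p under 0.05 (44 and 1), grey points did not pass, and all 15 Integrator points lie left of 0.

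Promoter sequences are shown for a few members because several of these genes, spread over the complexes, share short letter motifs close to their start. RefSeq promoters on build GRCm38.p6 (250 bases before to 50 after the most upstream start) matched 77 of the 91 members. The core of the site of NRF1, a factor of housekeeping and mitochondrial genes, was searched on both strands as GCATGCGC, and the site of ETS factors as CCGGAAGT. In the sequences printed here, the last 120 bases before the start are given in the direction of the gene. Capitals mark NRF1 cores and ETS sites, except for Taf9b, where they mark GC boxes (GGGCGG).
Taf6 (chr5:138187452-138187571, minus strand): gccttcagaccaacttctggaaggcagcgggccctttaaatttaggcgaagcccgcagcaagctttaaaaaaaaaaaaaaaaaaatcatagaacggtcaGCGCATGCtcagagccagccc
Polr2b (chr5:77310364-77310483, plus strand): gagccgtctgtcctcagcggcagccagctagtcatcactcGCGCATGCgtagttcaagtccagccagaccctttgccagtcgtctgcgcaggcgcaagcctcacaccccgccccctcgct
Ints2 (chr11:86257595-86257714, minus strand): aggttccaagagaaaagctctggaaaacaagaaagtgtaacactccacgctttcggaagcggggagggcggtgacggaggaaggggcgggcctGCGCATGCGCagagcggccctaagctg
Med17 (chr9:15279907-15280026, minus strand): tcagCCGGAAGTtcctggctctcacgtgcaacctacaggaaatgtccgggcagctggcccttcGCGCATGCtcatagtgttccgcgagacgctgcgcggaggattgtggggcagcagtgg
Taf9b (chrX:106221159-106221278, minus strand): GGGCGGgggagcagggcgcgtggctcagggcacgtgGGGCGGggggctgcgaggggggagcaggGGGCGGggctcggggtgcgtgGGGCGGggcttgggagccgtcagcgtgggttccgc
The NRF1 core begins 21 bases before the start in Taf6, 80 in Polr2b and 57 in Med17. Ints2 holds 2 cores that overlap, at 27 and 25 bases, since the motif also reads on the other strand. Med17 carries an ETS site 116 bases before the start. The first 4 of these genes fell, and Taf9b, whose window held GC boxes at 120, 84, 56 and 35 bases before the start, is the member that rose. Unmarked GC boxes also stood in the windows of Polr2b, 13 bases before the start, and of Ints2, at 55 and 37 bases.

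Over all 77 promoters, 10 held the NRF1 core (13%), against 5.85% of the 8833 promoters of genes tested and 2.8% of the 27025 in the table. The ETS site stood in 15 (19.5%), against 8.76% of promoters of genes tested. Either of these motifs stood in 21 members (27.3%, against 14%). Among members that fell, 7 of 35 held the NRF1 core and 6 held the ETS site, and among members that did not pass, 3 and 9 of 41. The other 6 motifs searched on both strands were the GC box, CCAAT, the YY1 core ATGGCGGC, the E2F site TTTCCCGC, the TATA box TATAAA and the E box CACGTG. GC boxes were as frequent in members (66.2%) as in genes tested (67.1%), and so was CCAAT (41.6% and 38.9%). GC boxes stood in 26 of 35 members that fell and in 24 of 41 that did not pass, and CCAAT in 18 and 14. None of these splits was tested. The YY1 core stood in 5.19% and 5.42%, the E2F site in 5.19% and 2.17%, the TATA box in 10.4% and 6.53%, and the E box in 14.3% and 10.3%. Median GC content was 59.3% in members and 61.7% in genes tested. A match is a string of letters and was not tested as a binding site.

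Of 6 subunits specific to RNA polymerase I, 4 fell (against 21.9% of all genes tested). All 3 measured under a Polr1 symbol passed: Polr1a, its largest subunit, Polr1b, the next largest, and Polr1e. Polr1b read 7.22, 6.63, 7.05, 5.86, 5.78, 5.88, 5.33, 5.95 and 5.20 on the arrays from E11 to P0, with the arrays of E11 to E13 above all later ones. Its slope was -0.23 ± 0.047 log2 units a day (± standard error over 9 arrays, adjusted p = 0.00306, limma), and it was 4.06-fold lower at P0 than at E11. Polr1a read 7.61 at E11, 6.22 at E14 and 6.53 at P0 (slope -0.15 ± 0.040, adjusted p = 0.0133). Its call ended without the E11 array (0.0806) and by exact rank correlation (0.0909), as did the Polr1b call by the latter (0.0535). From E13 to P0 the adjusted p was 0.0603 for Polr1b and 0.380 for Polr1a. Polr1e had a slope of -0.088 ± 0.022 and kept its call in each of 22 alternative settings. Of the other polymerase I genes, listed under older symbols, Znrd1 fell (-0.12 ± 0.023, adjusted p = 0.00243), although not from E13 to P0 (0.0512), while Cd3eap (-0.025, 0.572) and Twistnb (0.0078, 0.797) did not pass.

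The subunits that polymerase I shares with polymerase III, Polr1c and Polr1d, did not pass. Polr1c read 9.04 at E16 and between 10.57 and 11.65 on the other 8 arrays, so that its slope of -0.14 ± 0.080 had an adjusted p of 0.191. A second Polr1c probe set fell by 0.16 per day (adjusted p = 0.00123 when probe sets that can match several transcripts were left out). For this gene the outcome therefore rests on the probe set.

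Of 8 genes of RNA polymerase II, 5 fell (62.5%, against 21.9% of all genes tested). Slopes lay between -0.099 and -0.082 for 6 of them and were smaller for Polr2m (-0.025) and Polr2g (-0.010), which did not pass. Polr2c, part of the assembly platform of the enzyme, had the steepest (-0.099 ± 0.015, adjusted p = 0.000529) and read 11.53 at E11, 10.99 at E15 and 10.72 at P0. Polr2b, the second largest subunit, a gene with an NRF1 core in its promoter, went from 13.42 at E11 to 12.51 at P0, 1.89-fold lower (slope -0.090 ± 0.020, adjusted p = 0.00466), and did not pass from E13 to P0 (0.0765). Polr2a, the largest subunit with the repeated tail, read 7.90 at E11, 8.40 at E12, 7.04 at E17 and 7.62 at P0. Its slope of -0.091 ± 0.038 matched that of Polr2b in size but missed the threshold (adjusted p = 0.0714), and it passed without the P0 array (0.0260), with median centring (0.0418) and for the linear term beside age squared (0.0465). Only 3 of the subunits common to polymerases I, II and III were among the members. Polr2h (-0.14 ± 0.025, adjusted p = 0.00110) and Polr2e (-0.10 ± 0.022) fell, and Polr2f (-0.030, adjusted p = 0.168) did not pass.

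Of 9 genes of polymerase III, 2 fell, Polr3g and Polr3c (22.2%, near the 21.9% of all genes tested). Polr3g, the alternative RPC7 subunit known from stem cells, read 6.21, 5.38, 5.33, 4.57, 5.03, 4.58, 3.46, 4.06 and 3.37 from E11 to P0. It was at or above 5 on 4 arrays, those of E11, E12, E13 and E15, and passed the filter through them. Its level at P0 lay at least 2.32-fold under that at E11, with readings under 5 set to 5. The slope on the readings as deposited was -0.32 ± 0.050 (adjusted p = 0.000628) and rests on low readings at the later ages. With readings under 5 set to 5 it was -0.11 ± 0.035 (adjusted p = 0.0245). The call held in the 21 alternative settings that tested it, and it was not tested with a filter at log2 6. Polr3c, a subunit of the initiation subcomplex, read 9.10 at E11, 7.57 at E17 and 8.30 at P0, and fell at adjusted p = 0.0344. It was the 1 member with a quadratic call (a dip, adjusted p = 0.0484, turning at day 16.3), where 6.86% of all genes had a quadratic call and 1.26% a dip. The linear call of Polr3c ended in 9 settings, among them without the array of E11 (0.194), E12 (0.0840), E16 (0.0507) or E17 (0.0581) and from E13 to P0 (0.649). The other 7 genes of polymerase III did not pass, including the large subunits Polr3a (-0.0055, adjusted p = 0.889) and Polr3b (-0.031, 0.447). Polr3k, a small subunit, had a slope of -0.034 (adjusted p = 0.229) on the probe set used, which can match several transcripts. Another Polr3k probe set read 11.56 at E11 and 9.57 at P0 and fell by 0.24 per day when it was used instead (adjusted p = 2.65e-05). Further Polr3k probe sets had slopes of -0.19 (mean level 5.24) and -0.049 (mean level 8.88). Polrmt, the single-subunit polymerase of mitochondria, read between 6.72 and 7.27 and did not pass (0.025, adjusted p = 0.474).

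**Figure D2:**
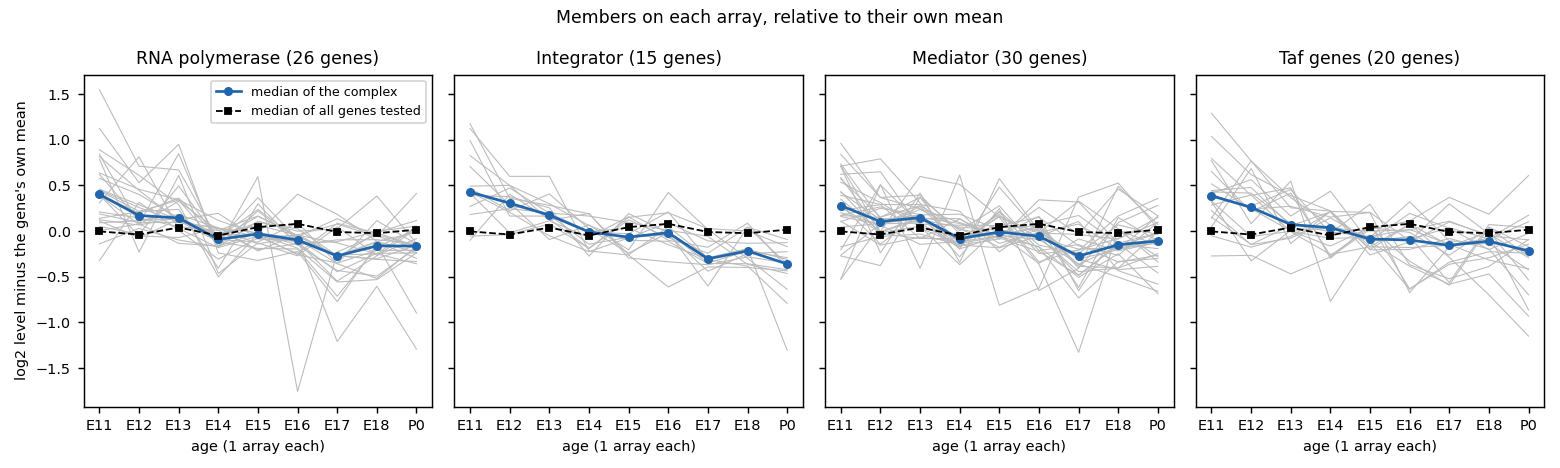
Log2 level of every member on each array minus the gene's own mean over the 9 arrays (grey lines), by complex, with the median of the complex in blue and the median of all 10864 genes tested in dashed black. The blue medians start above 0 at E11 and end below 0 at P0 in all 4 panels, and the dashed line stays near 0.

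Falling genes stood in every module of Integrator, though 4 of its 15 genes did not pass. Ints11, the endonuclease, read 9.68, 9.69, 9.49, 9.25, 9.09, 9.08, 8.83, 8.83 and 8.77 from E11 to P0 and declined almost without interruption (slope -0.13 ± 0.018, adjusted p = 0.000353, limma). Ints9, its inactive partner in the cleavage module, read 8.70 at E11, 6.97 at E16 and 7.15 at P0, 2.95-fold lower at birth (slope -0.19 ± 0.039, adjusted p = 0.00261). Ints4, which holds these proteins together, read 9.24 at E11 and 8.42 at P0 and did not pass (-0.060 ± 0.025, adjusted p = 0.0712), except without the E18 array (0.0333) and with median centring (0.0245). From E13 to P0 the Ints9 call ended too (0.100).

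The phosphatase module held both the steepest and the flattest slope of the complex. Ints8 read 10.34, 9.53, 9.45, 9.36, 8.91, 9.21, 8.88, 8.98 and 7.86, so that it was 5.58-fold lower at P0, with a large step at the last age (slope -0.21 ± 0.038, adjusted p = 0.00138). The 3 other passing probe sets of Ints8 had slopes from -0.12 to -0.026. Ints6 lay between 13.55 and 13.95 on all arrays (slope -0.00094 ± 0.018, adjusted p = 0.969). Ints5 fell (-0.091 ± 0.016) and the Ints6 relative Ints6l did not pass (-0.051, adjusted p = 0.0956), although it did with median centring (0.0353). In the arm of the complex, Ints13 (-0.16 ± 0.032, adjusted p = 0.00245), Ints14 and Ints10 fell. Ints10 was the 1 called member with another probe set whose slope ran the other way (0.018), and its call ended with the mean of its probe sets (0.423). In the backbone, Ints7 fell (-0.14 ± 0.027, adjusted p = 0.00196), though not from E13 to P0 (0.0869). Ints12 and Ints2 fell too, and Ints1 did not pass. The Ints2 call (adjusted p = 0.0370) ended in 8 settings, including without the array of E11 (0.118), E12 (0.0799), E14 (0.0514), E18 (0.0790) or P0 (0.193). Ints3, counted outside these modules, fell (-0.091 ± 0.032, adjusted p = 0.0377). Its call ended in 9 settings, among them without E11, E12, E13, E17 or P0 and with sex in the fit.

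Partners of Integrator moved in both directions. Inip, part of the single-strand DNA-binding SOSS complex to which Ints3 also belongs, fell (-0.13 ± 0.027, adjusted p = 0.00372). Nabp1, a DNA-binding subunit of SOSS, rose (0.15 ± 0.041, adjusted p = 0.0132), although not from E13 to P0 (0.0752) or with the mean of its probe sets (0.108). Nabp2, the alternative subunit to Nabp1, fell, and the difference between them was not tested.

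In Mediator, the scaffold subunit fell at every step. Med14, which joins head, middle and tail, read 10.98, 10.38, 10.26, 10.11, 9.97, 9.92, 9.65, 9.51 and 9.36 from E11 to P0, lower on every array than on that of the day before. Its slope was -0.17 ± 0.020 (adjusted p = 0.000118, limma), a 3.08-fold difference between E11 and P0. A second, weaker Med14 probe set had a slope of -0.0077. Med25, a tail subunit bound by activators, went from 9.92 at E11 to 8.52 at P0 (slope -0.17 ± 0.026, adjusted p = 0.000540). Med24, also of the tail, fell (-0.10 ± 0.024, adjusted p = 0.00615), but not from E13 to P0 (0.0620). The head subunit Med8 read 10.91 at E11, 9.34 at E17 and 9.77 at P0 (-0.15 ± 0.029, adjusted p = 0.00206, and 0.0597 from E13 to P0).

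Of the 30 Mediator genes 20 did not pass, which does not show a steady level. Med27 (-0.13 ± 0.060), Med29 (-0.10 ± 0.047) and Med21 (-0.095 ± 0.037) had slopes as steep as some that passed. In the middle module 3 of 9 fell (33.3%) and in the head 3 of 7 (42.9%), against 21.9% of all genes tested. Of 4 subunits assigned to head or tail none passed in either direction. With so few genes in a module, these shares were not compared by a test. Med1, the contact of nuclear receptors, lay between 10.87 and 11.21 (slope -0.030 ± 0.017, adjusted p = 0.173), and passed with median centring (0.0398) and with the mean of its probe sets (0.0151). Med17, a head subunit with both an NRF1 core and an ETS site in its promoter, fell (-0.089 ± 0.026, adjusted p = 0.0187). That call ended without the E11 array (0.107) and from E13 to P0 (0.218).

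The kinase module of Mediator did not move as a block. Med12, which activates the kinase, read 8.49, 8.52, 7.90, 7.72, 7.68, 7.81, 7.97, 7.43 and 7.29 and fell (-0.13 ± 0.031, adjusted p = 0.00607), with E11 and E12 above all later arrays. It did not pass from E13 to P0 (0.194) or by exact rank correlation (0.0535). Its relative Med12l read 7.56, 8.15, 7.94, 7.97, 8.24, 8.07, 8.05, 8.55 and 8.26 and had a slope of 0.071 ± 0.027 (adjusted p = 0.0545). Med12l passed without the E12 array (0.0284). Its adjusted p was 0.0466 when other genes were averaged over their probe sets, with the slope of its 1 probe set unchanged. Med13 (0.026, adjusted p = 0.405) and Med13l (-0.0035, adjusted p = 0.947), which tie the kinase to the rest of Mediator, did not pass. Among the partners of the module, the kinase Cdk8 read 11.73, 11.40, 11.28, 11.06, 10.97, 10.89, 10.71, 10.50 and 10.57 (slope -0.14 ± 0.016, adjusted p = 0.000106). The alternative kinase Cdk19 read 9.07, 9.43, 9.75, 10.01, 9.69, 10.23, 10.00, 9.87 and 10.07 and rose (0.10 ± 0.030, adjusted p = 0.0188), while Ccnc, their cyclin, did not pass (0.092 ± 0.043, adjusted p = 0.103) except without the E14 array (0.0440). The Cdk19 call ended without the E11 array (0.118), from E13 to P0 (0.483), with the mean of its probe sets (0.157) and by exact rank correlation (0.0803). The difference between the kinases was not tested.

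Within the Taf genes, TFIID subunits held both the steepest fall and the single rise. Taf6, a histone-fold subunit of TFIID, read 9.58, 9.06, 8.65, 8.36, 8.17, 7.90, 7.71, 7.82 and 7.36 and was 4.66-fold lower at P0 (slope -0.25 ± 0.027, adjusted p = 7.46e-05, limma). Taf9b, a close relative of the TFIID subunit Taf9 with a reported role at neuronal genes, read 6.97, 6.97, 6.77, 6.96, 7.26, 7.35, 7.61, 7.42 and 7.85. The arrays from E15 on lay above all earlier ones (slope 0.12 ± 0.026, adjusted p = 0.00493). Taf2, which contacts promoter DNA, fell (-0.10 ± 0.017, adjusted p = 0.00101). Calls of Taf6, Taf9b and Taf2 held in each of 22 alternative settings. Taf1, the largest subunit, did not pass (-0.035 ± 0.024, adjusted p = 0.258) except by exact rank correlation (0.0392).

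Weaker TFIID calls depended on single arrays. Taf7 (-0.12 ± 0.037, adjusted p = 0.0206) lost its call without E12 (0.0627) or P0 (0.0967), and Taf5 (-0.12 ± 0.034, adjusted p = 0.0165) without E12 (0.0528). Both lost it from E13 to P0 (0.0755 and 0.185) and by exact rank correlation (0.0611 and 0.0535). Taf10, Taf11 and Taf12 fell as well, and these calls ended in 11, 13 and 6 settings.

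Of the SL1 subunits at the ribosomal RNA promoter, Taf1d and Taf1c fell and Taf1a and Taf1b did not pass. Taf1d read 10.44 at E11, 9.20 at E15 and 8.25 at P0, 4.55-fold lower (slope -0.24 ± 0.025, adjusted p = 6.83e-05), and the slopes of its 5 other passing probe sets ran from -0.14 to -0.047. The Taf1c call ended in 9 settings. In SAGA, a coactivator complex, Taf6l fell (-0.13 ± 0.042, adjusted p = 0.0263) and Taf5l (-0.035, 0.359) did not pass. The Taf6l call ended without E11 (0.131), E12 (0.0559) or E17 (0.0503), from E13 to P0 (0.356) and by exact rank correlation (0.126). Taf15, an RNA-binding protein of the FET family, fell (-0.12 ± 0.033, adjusted p = 0.0144), but not without the P0 array (0.0910), from E13 to P0 (0.160) or by exact rank correlation (0.0611).

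Levels of different probe sets have no common scale, so related subunits were compared by the change of their difference within each array. Of 15 pairs listed, 12 had both genes tested, and in 5 the difference changed with age by a two-sided exact permutation test over the 362880 orders of the arrays, adjusted over the 12. Polr3g against Polr3gl, its counterpart of differentiated tissues, changed by -0.35 ± 0.063 per day (95% interval -0.50 to -0.21, adjusted p = 0.00354). With readings under 5 set to 5, which Polr3g had on 5 of the 9 arrays, the change was -0.15 per day (adjusted p = 0.0132), an alternative added after the data were seen. Polr3gl itself read 5.97 at E11 and 6.70 at P0 and did not pass alone (0.037, adjusted p = 0.395). Med12 against Med12l changed by -0.20 ± 0.042 (-0.30 to -0.10, adjusted p = 0.00778), although without the E11 array the adjusted p was 0.0560. Polr1b fell against Polr3b by 0.19 ± 0.030 per day (interval of the difference -0.26 to -0.13, adjusted p = 0.00112), which held with each array left out in turn.

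The other pairs that passed were less stable. Taf6 against Taf6l changed by -0.12 ± 0.034 (adjusted p = 0.0273), and the call ended without E11 (0.0804), E12 (0.0603), E17 (0.0577) or P0 (0.0949). Polr1b against Polr2b changed by -0.14 ± 0.039 (adjusted p = 0.0273), and the call ended without E11 (0.0804), E12 (0.0603), E15 (0.0556), E16 (0.0557), E17 (0.0592) or P0 (0.0778). For Med13 against Med13l the interval ran from -0.071 to 0.13 log2 units per day (adjusted p = 0.508). Among the largest subunits, Polr1a against Polr3a (-0.14 ± 0.049, adjusted p = 0.0578) passed without E14 (0.0403) or P0 (0.0151), and Polr2a against Polr3a (-0.086 ± 0.052, adjusted p = 0.169) without P0 (0.0389). Polr1a against Polr2a did not pass (adjusted p = 0.170). Of the remaining pairs, Ints6 against Ints6l (0.050, adjusted p = 0.115) passed without P0 (0.0391), Taf5 against Taf5l (-0.083, 0.0977) without E14 (0.0400), and Polr2b against Polr3b (-0.059, 0.115) without E13 (0.0138).

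**Figure D3:**
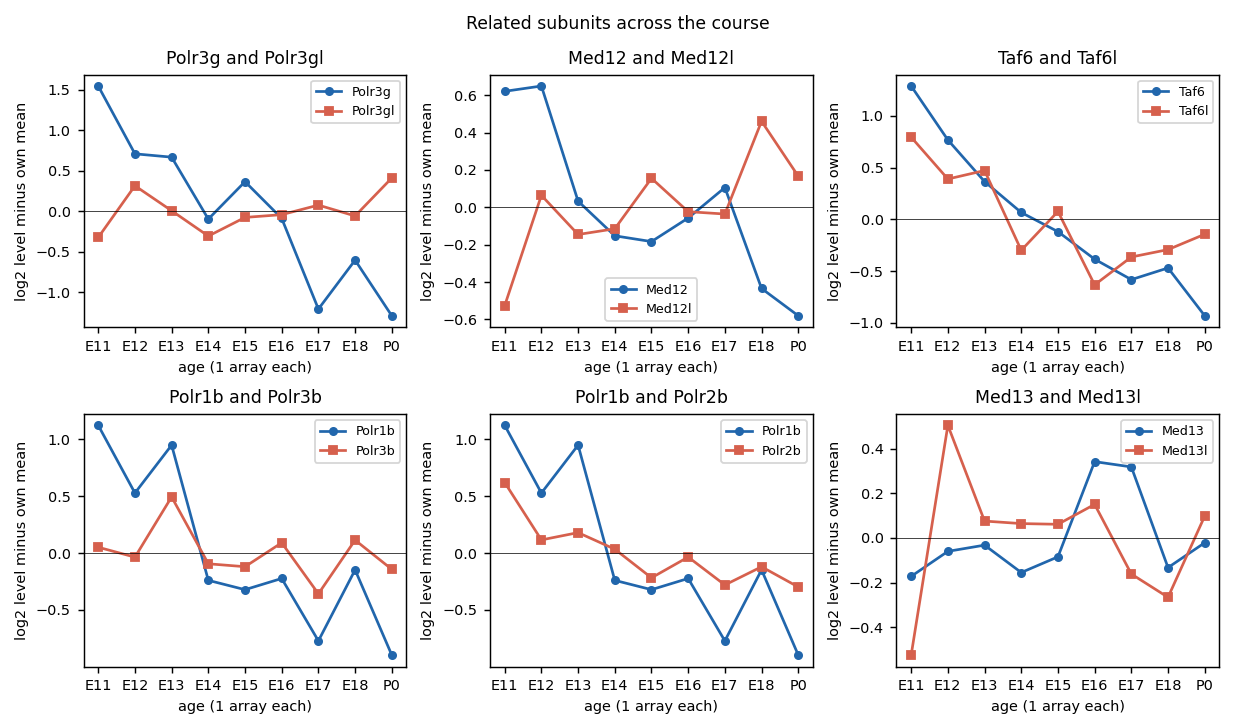
Log2 level minus the gene's own mean on each array for 6 pairs of related subunits. Polr3g and Polr3gl, and Med12 and Med12l, move apart between E11 and P0, Polr1b declines more than Polr3b and Polr2b, Taf6 more than Taf6l, and Med13 and Med13l show no common course.

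The share of members that read lower on the later array varied from step to step. From E13 to E14, 83.5% of members read lower on the later array, against 61% of all genes tested, and 24 of 26 polymerase genes did so. From E11 to E12, 69.2% read lower (54.8% of all genes). From E16 to E17, 68.1% did, near the 63.9% of all genes. In that step 14 of 15 Integrator, 18 of 26 polymerase, 20 of 30 Mediator and 10 of 20 Taf genes read lower. In the step from E17 to E18, 42.9% read lower (50.3%). The E11 array held the highest reading for 49 of the 91 members (53.8%, against 27.5% of all genes tested). E17 and P0 held the lowest for 27 each (29.7%, against 10.8% and 14.6% of all genes). The median member level was 9.32 at E11, 8.78 at E14 and 8.46 at P0. The median deviation from the gene's own mean was 0.40 at E11, -0.055 at E14, -0.27 at E17, its lowest, and -0.17 at P0. These steps each compare 1 array with another and were not tested.

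**Figure D4:**
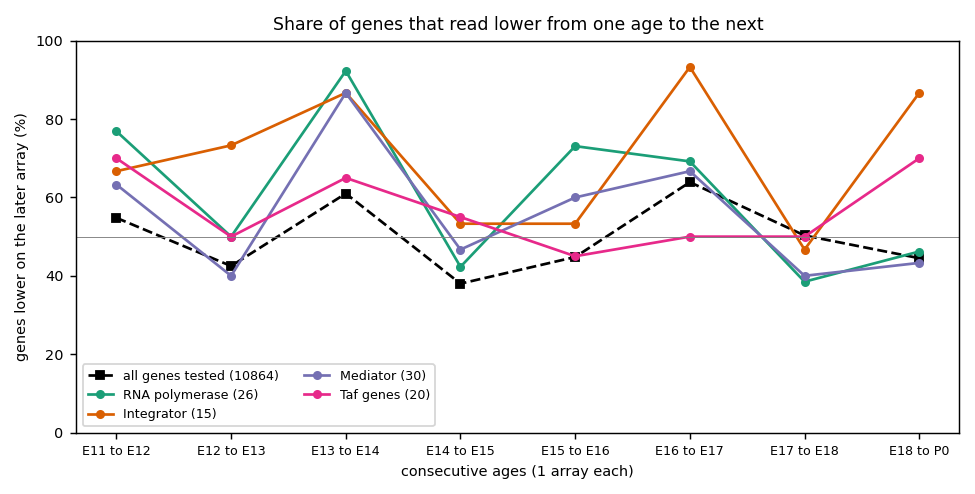
Percentage of genes that read lower on the later of 2 consecutive arrays, for the 4 complexes and for all 10864 genes tested (dashed black). The polymerase genes reach 92.3% from E13 to E14 and the Integrator genes 93.3% from E16 to E17, against 61% and 63.9% of all genes.

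Factors that work with these complexes were counted from 8 lists. Of 76 tested genes 29 fell (38.2%, against 21.9% of all genes) and 2 rose (25.2% of all genes), with a median slope of -0.042. Among 21 genes of pausing and elongation 8 fell, led by Larp7, which stabilises the 7SK RNA (-0.22 ± 0.034, adjusted p = 0.000611), and Cdc73 of the PAF complex (-0.19 ± 0.028). The Cdc73 call ended with the mean of its probe sets (adjusted p = 0.346). Of 18 general factors of RNA polymerase II 7 fell, with Gtf2f2, a TFIIF subunit (-0.16 ± 0.043, adjusted p = 0.0135), and Tbpl1, a relative of the TATA-binding protein (-0.13 ± 0.024), the steepest. The Gtf2f2 call ended without E11 (0.0903), from E13 to P0 (0.0638) and by exact rank correlation (0.0535).

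Of 17 factors of RNA polymerase III 7 fell (41.2%, against 21.9% of all genes tested). They included the TFIIIC subunits Gtf3c6 (-0.19 ± 0.019, adjusted p = 4.21e-05) and Gtf3c5 (-0.14 ± 0.024, adjusted p = 0.00102). Of 3 initiation factors of RNA polymerase I, Rrn3 fell (-0.058 ± 0.021, adjusted p = 0.0422) and Ttf1 (-0.080, adjusted p = 0.0744) did not pass. The Rrn3 call ended without the array of E11, E13, E14, E15, E17, E18 or P0 (adjusted p up to 0.159), and Ttf1 passed in 3 settings. In mitochondrial transcription 2 of 8 fell (25%), near the share over all genes. They were Tfb1m, a ribosomal RNA methyltransferase (-0.17 ± 0.032, adjusted p = 0.00183, and 0.0670 from E13 to P0), and Tfam, which packs mitochondrial DNA (-0.080 ± 0.027, adjusted p = 0.0299). The Tfam call ended in 7 settings, including without E11 (0.174), E17 (0.0587), E18 (0.0722) or P0 (0.0546).

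Markers of cell types moved on the same arrays, and their part in these declines was not tested. All 19 tested cell division markers of 20 listed fell (median slope -0.37), and their summed level, on a log2 scale, went from 16.44 at E11 to 13.87 at P0. Of 14 neuron markers 10 rose (summed level 15.03 to 16.33). Of the astrocyte and ensheathing glia markers 11 of 11 tested rose (14.52 to 15.89). Fabp7 alone read 14.46 at E11 and 15.34 at P0, while the median level of that list went from 3.28 to 10.54. Of meninges and vessels 9 of 11 rose (12.70 to 15.13, lowest 11.80 at E13) and of microglia 7 of 7 (8.30 to 11.13). Among 5 red cell markers 4 fell (16.27 to 7.65), the embryonic globins Hba-x, Hbb-y and Hbb-bh1, and Slc4a1. Alas2 read 9.46 at E11, 8.43 at E18 and 6.94 at P0 and did not pass (adjusted p = 0.306, limma). The red cell sum therefore does not measure the number of red cells. Gfap, Pecam1, Cdh5, Aif1, Ptprc, Hba-a1 and Epor were under 5 on all arrays. The arrays of E11, E12, E15 and P0 came from females and the other 5 from males by Xist and Y-linked genes. With sex in the fit 37 members fell (40.7%), as did 19.8% of all genes tested. Med12, Med14, Taf1, Taf9b and Ints6l lie on the X chromosome, and the calls of Med12, Med14 and Taf9b held with sex in the fit. The difference between 3' and 5' probe sets, a sign of RNA quality, moved with age too, and its part in the declines was not tested. For Gapdh it lay between 1.55 and 1.77 at E11 to E13 and between 1.87 and 2.12 on the later arrays. For actin it lay between 1.48 and 1.68 at E11 to E13 and between 1.62 and 1.90 later.

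The members near the filter were Polr3g (mean level 4.67), Taf8 (5.43, at 5 or more on 7 arrays) and Taf7 (5.51, on 8 arrays) just inside it. Outside it were Taf4b (highest reading 4.94), Taf7l (2.66), Taf7l2 (2.45) and Med9os (4.12), the last an antisense transcript and not a subunit. For 39 members another probe set passed the filter (58 in all), and 9 of these ran against the probe set used. They belonged to Ints10, Ints6l, Med13, Med13l, Med15, Med20, Polr3d, Polr3f and Polrmt.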

How the data were processed

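Total RNA of 9 olfactory bulbs was measured on 1 array each. The authors deposited log2 levels per probe set made with GCRMA, per the submitters' processing notes, a method that corrects background by probe sequence and then normalises the arrays to each other. Its version is not given in the sources used here. That the values are on a log2 scale was judged from their range. No further scaling was applied. Of 45101 probe sets, 64 were controls, 34945 others carried 1 symbol, 932 several and 9211 none. Entrez IDs matched a RefSeq gene table for 34741, and 0 symbols changed. The 6 probe sets that name a member and another gene were left out.

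Slopes on age (E11 as day 11, P0 as day 19) were fitted for all 10864 genes tested with limma 3.58.1 in R 4.3.3 (moderated variance with a trend on the level, two-sided, Benjamini-Hochberg over all genes, threshold 0.05), with 7 residual degrees of freedom (median 10.3 moderated). A quadratic term was tested in the same way. The animals were 9 different mice, and the number of arrays limits the precision. Folds compare P0 with E11, with readings under 5 set to 5. On simulated data for the 10864 genes, the linear test found 6% of trends of 0.5 log2 units, 34% of 1, 84% of 2 and 94% of 4. Alternatives changed the arrays, normalization, filter, probe set, covariate, age scale, variance model or test (22 settings). They are described in the closing section.

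Genes named were, in each complex, the 5 falling and 3 rising members of largest slope, the large polymerase subunits, the Integrator cleavage module, the Mediator kinase module, Med1, Med14, Taf1, Taf15 and Polrmt. To these came the paired genes, members with a quadratic call, near the filter or with a probe set of opposite sign, and the 2 steepest genes of each pathway list. Polr1c, Polr1e, Polr2c, Polr2g, Polr2m, Polr3k, Med17, Med21, Med27, Med29, Twistnb, Ints2, Ints3, Ints5, Taf2, the promoters shown and other members named in counts were chosen after their values were seen. Members and lists were chosen with earlier results of these data known.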

Additional observations from a re-analysis of the deposited data

How the results depend on the processing

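Of the 45 members with a call, 14 kept it in each of the 22 alternative settings that tested them, and none changed direction. They were Ints5, Ints8, Ints11, Ints13, Med14, Med25, Polr1e, Polr2c, Polr2h, Polr3g, Taf1d, Taf2, Taf6 and Taf9b, with Polr3g not tested under a filter at log2 6. From E13 to P0, the members that fell numbered 15 (16.5%, and 11.1% of all genes tested). They were 4 polymerase, 5 Integrator, 3 Mediator and 3 Taf genes, and this setting also holds fewer arrays. The Taf genes that fell numbered 5 by exact rank correlation, 7 with sex in the fit and 7 without a filter. In these settings 18.6%, 19.8% and 12.3% of all genes tested fell. With the mean of all passing probe sets 2 members rose. With median centring 55 members fell (60.4%, and 27.5% of all genes tested), and the median slope of all genes went from 0.0020 to -0.016. With 1 array left out, 32 to 44 members fell (35.2% to 48.4%, and 16.6% to 21.5% of all genes tested) and 1 to 2 rose. Among them, 6 to 11 Mediator genes and 5 to 11 Taf genes fell.

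With 1 array left out, the slope of the difference ran from -0.22 to -0.16 for Med12 and Med12l, from -0.0023 to 0.080 for Med13 and Med13l, from 0.019 to 0.075 for Ints6 and Ints6l, and from -0.10 to -0.071 for Taf5 and Taf5l. It ran from -0.13 to -0.086 for Taf6 and Taf6l, from -0.20 to -0.10 for Polr1a and Polr3a, from -0.15 to -0.053 for Polr2a and Polr3a, from -0.16 to -0.12 for Polr1b and Polr2b, and from -0.076 to -0.023 for Polr2b and Polr3b. With readings under 5 set to 5, added after the data were seen, the difference of Polr3g and Polr3gl changed by -0.15 per day and the same 5 pairs passed. With the mean of probe sets, the difference turned to -0.025 for Ints6 and Ints6l and to 0.0020 for Polr1a and Polr2a. Among genes with no call, slopes changed sign for Ints6 (-0.0073 to 0.017 with 1 array left out, 0.0011 with quantile normalization, a rank correlation of 0.083), Med13 (-0.013 with the mean of probe sets) and Med13l (-0.061 to 0.030, a rank correlation of 0). The same held for Polr3a (-0.013 to 0.017, and 0.00040 from E13 to P0) and Taf5l (0.033 from E13 to P0). For all of these the cause was not tested. No paired analysis was possible because each age had 1 array, so that no 2 groups share replicate numbers of more than 1 animal. Members near log2 5, such as Polr3g, Taf7 and Taf8, are read close to the array's background.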
